A study of Gallus gallus with 12 samples.

Results

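The HSP70 family genes of the chicken hypothalamus were followed in heat-stressed birds, in birds returned to normal temperature and in control birds. The members were HSPA2, HSPA4L, HSPA5, HSPA8, HSPA9, HSPA13 and HSPH1, and every probe whose accession the chicken reference assigns to 1 of these symbols was taken. This gave 22 of the 43603 probes on the array besides the controls, or 7 of the 4814 genes that the reference names there. HSPA2 had 6 probes, HSPA4L had 1, and the other genes had 3 probes each. All 22 probes passed the filter on dim probes, and 21 were above background on all 12 arrays.

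RNA was measured on 1-colour Agilent arrays, 1 bird to an array and 4 birds to a group. HS birds spent 24 h at 34°C, TR birds had the same 24 h at 34°C and then 24 h at 25°C, and CL birds stayed at 25°C. All birds were female Anak_40 broilers, sibs through 1 or both parents, reared together at 25°C, and heat began at 56 d of age for HS and TR alike. HS tissue was taken right after the heat and TR tissue 24 h later, so that age and day of collection differ between HS and TR along with the treatment. By the wording of the study's methods, CL tissue was collected along with TR tissue. Age and day of collection would then differ between HS and CL as well. HS1 stands for the array of replicate 1 of HS, and so on, and a level is a log2 signal after quantile normalization between arrays. A change is a difference of mean log2 signals in limma's fit of the 3 groups, and a probe was called DE where it changed by over 1.5-fold with p below 0.05 and FDR (Benjamini-Hochberg) below 0.15.

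HSP70 proteins bind stretches of unfolded protein and release them in a cycle driven by ATP. J-domain proteins (the HSP40 group) deliver the client and trigger ATP hydrolysis, and nucleotide exchange factors reset the cycle. Vertebrate cells keep separate members in the cytosol, the endoplasmic reticulum (ER) and the mitochondria. In the cytosol some members are made at all times and others are induced through heat shock factors, while the ER member answers to the unfolded protein response.

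Some facts of the whole series bear on these values. The arrays had 33505 to 36852 spots above background, with a median ratio of signal to background of 16.8 for HS, 14.6 for TR and 12.6 for CL arrays. Slides held 1 group each, and effects of slide cannot be told apart from those of group. Scanning of the CL slide took place on a separate day. The sample titles name the hypothalamus, but other labels of the same samples give spleen, male birds and infection. HINTW, which lies on the W chromosome that hens alone carry, was between 17.47 and 17.93 on all 12 arrays, which is against the label of male birds. Of 10 lymphoid and spleen markers with a probe (of 11 listed), 5 were above background on all arrays, and their log2 summed signal was between 18.09 and 18.19 in HS, 18.19 and 18.33 in TR, and 18.24 and 18.40 in CL. Among them CD74 was between 18.07 and 18.38 and the T cell gene CD3D between 11.02 and 12.34, while TLX1 and NKX2-5, transcription factors of the spleen, were above background on 3 arrays and on 0 arrays. Of 8 hypothalamic neuropeptide genes with a probe, 4 were above background on all arrays, and AVP (vasotocin) ranged between 7.68 and 18.71. The 6 neuron markers with a probe (of 8 listed) were above background on all arrays, and their summed signal, on the log2 scale, was between 13.77 and 16.72 in HS, 13.18 and 13.66 in TR, and 13.14 and 14.24 in CL, highest on HS4 and HS3. The log2 summed signal of the 11 striated muscle markers with a probe reached 17.82 on CL2 and 16.30 on HS2, and was between 13.65 and 14.38 on the other 10 arrays.

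No probe of an HSP70 family gene was DE after heat stress. In HS vs. CL, 0 of the 22 probes were DE, where 3.58% of all 34919 probes tested were. In HS vs. TR, 0 of 22 were DE, against 1.84% of all probes, and in TR vs. CL, 0 of 22 against 0.0945%. Without the fold limit, 2 probes passed the limits on p and FDR in HS vs. CL, a HSPH1 probe and a HSPA9 probe, both higher in HS. Across all probes 11.1% passed the same limits (4.14% with a higher signal in HS), so the share among the members was near the background. No member passed them in HS vs. TR (4.59% of all probes) or in TR vs. CL (0.152%). The arrays of both groups did not overlap for 3 of the 22 probes in HS vs. CL, where 11.8% of all probes were so separated, and for 0 of 22 in HS vs. TR (11.3%) and TR vs. CL (5.23%). At an unadjusted p under 0.05 there were 4 probes in HS vs. CL (20.7% of all probes), 1 probe in HS vs. TR (16.4%) and 1 probe in TR vs. CL (7.79%). The median change of the 22 probes was 0.05 (HS vs. CL), -0.07 (HS vs. TR) and 0.09 (TR vs. CL), beside -0.04, -0.04 and -0.01 over all probes tested.

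The intervals give the changes that the spread between birds within groups, 4 birds to a group, leaves possible. They do not take in effects of slide, since each slide held 1 group. For 13 of the 22 probes in HS vs. CL, the 95% interval of the change lay wholly within a 1.5-fold change either way. The same held for 19 probes in HS vs. TR and for 17 in TR vs. CL. The share of all probes with such intervals was not computed, so these counts are no result about the members. Over all probes tested the median SE was 0.14 in each comparison. In HS vs. CL the intervals that reached beyond 1.5-fold were those of all 3 probes of HSPH1 and of HSPA5, 2 of HSPA13 and 1 of HSPA8.

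**Figure D1:**
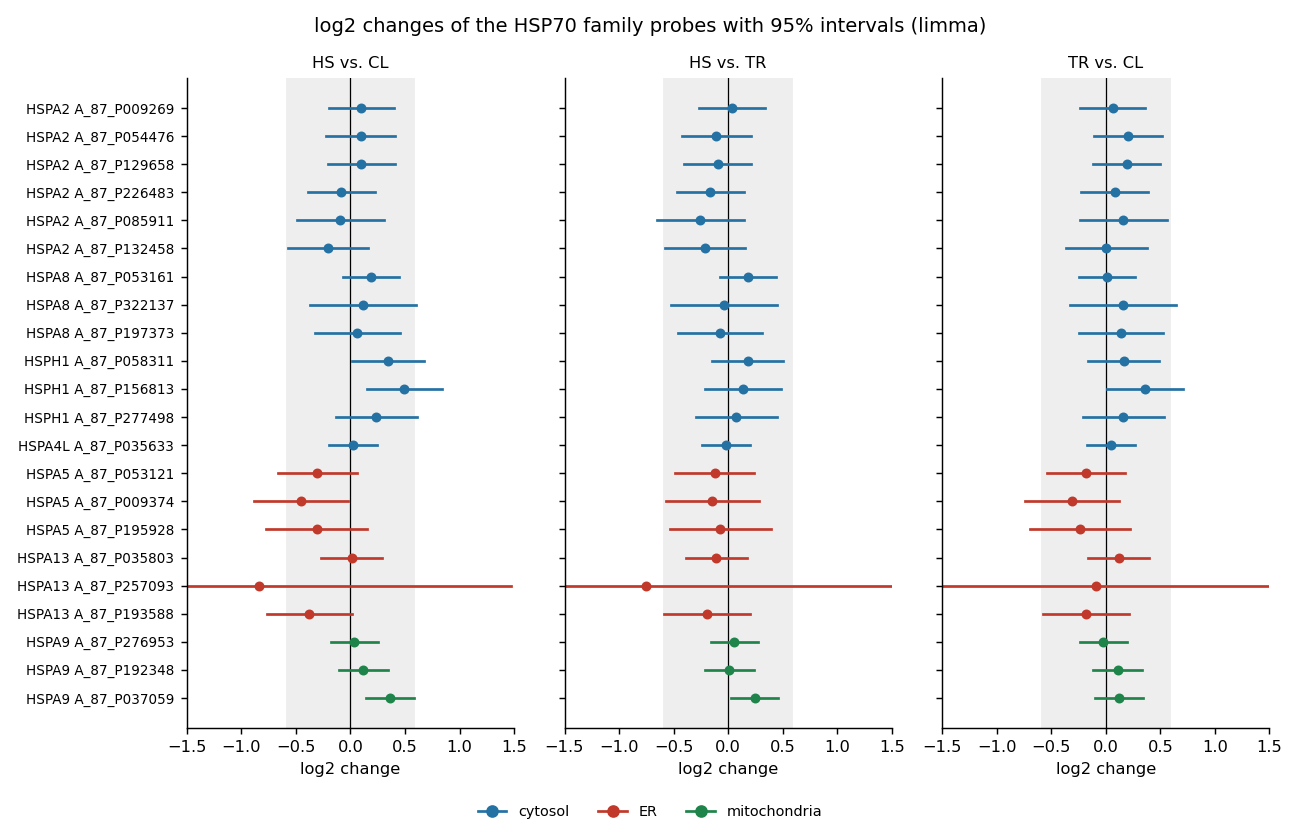
log2 change of each of the 22 HSP70 family probes (points) with its 95% interval (lines), from limma, with a panel for each comparison, coloured by compartment, with the grey band marking changes under 1.5-fold. No point lies outside the band except that of HSPA13 A_87_P257093 in the panels of HS against CL and TR, whose interval runs past the lower end of the axis, and the HSPA5 points are below 0 in all 3 panels.

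HSPA2 carries the synonym HSP70 in the chicken reference, and HSP70 is the classic heat-inducible chaperone of the cytosol. Its brightest probe, A_87_P009269, was at 15.48, 15.24, 15.26 and 15.69 in HS, at 15.65, 15.44, 15.06 and 15.38 in TR, and at 15.16, 15.40, 15.40 and 15.32 in CL. The 3 groups overlapped, with HS4 and TR1 highest and TR3 lowest. The change in HS vs. CL was 0.10 (SE 0.14, adjusted p 0.721), with a 95% interval of -0.20 to 0.40, which corresponds to between 0.871-fold and 1.32-fold. Under scaling of each array to its 75th percentile, the same change was -0.01.

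The 6 HSPA2 probes lay close to 0 together. In HS vs. CL, 3 were above 0 and 3 below, between -0.21 and 0.10, and the interval of each of the 6 stayed within 1.5-fold. In HS vs. TR, 5 of the 6 were below 0, between -0.25 and 0.04. In TR vs. CL all 6 were above 0, between 0.00 and 0.20 (5 of 6 under scaling to the 75th percentile), and none was called. The spread between birds was shared by the probes: TR1 was the highest array for 5 of the 6, and TR3 was the lowest for all 6.

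HSPA8, or HSC70, is the cognate HSP70 that the cytosol holds without stress. Its brightest probe, A_87_P053161, was at 17.52, 17.45, 17.29 and 17.59 in HS, at 17.47, 17.13, 17.12 and 17.40 in TR, and at 17.52, 17.12, 17.17 and 17.28 in CL. The groups overlapped, since CL1 and TR1 stood as high as the HS arrays and HS3 was below TR4. The change of HS was 0.19 against CL (SE 0.12, adjusted p 0.386) and 0.18 against TR (adjusted p 0.473), while TR vs. CL gave 0.01. All 3 depended on how arrays were scaled. Under scaling to the 75th percentile they were -0.01, 0.05 and -0.06, in the same order. The other 2 probes gave 0.12 and 0.06 in HS vs. CL. CL2, the array with the most striated muscle signal, was the lowest for all 3 probes, and without it the change of the brightest probe in HS vs. CL was 0.14 (adjusted p 0.608). Since CL2 was the lowest array, leaving it out shrinks the change by selection. The part of muscle content was not tested.

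HSPH1, of the HSP110 group, acts in the cytosol as a nucleotide exchange factor for HSP70 and is itself a heat shock protein. It had the highest changes among the cytosolic members in HS vs. CL. The probe A_87_P156813 was at 11.41, 11.38, 11.75 and 11.75 in HS, at 11.91, 11.30, 11.35 and 11.19 in TR, and at 11.13, 10.90, 11.08 and 11.21 in CL. All 4 HS arrays were above all 4 CL arrays, as for 4.49% of all probes, while TR1 was above every HS array. The change in HS vs. CL was 0.49 (SE 0.16, adjusted p 0.118), or 1.41-fold with a 95% interval of 1.11 to 1.79, so it passed the limits on p and FDR and not that on fold.

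The brightest HSPH1 probe, A_87_P058311, was at 11.80, 11.90, 12.17 and 12.27 in HS, at 12.17, 11.80, 11.87 and 11.58 in TR, and at 11.56, 11.59, 11.66 and 11.96 in CL. HS3 and HS4 were above all CL arrays, and HS1 and HS2 were below CL4. Its change in HS vs. CL was 0.34 (SE 0.15, adjusted p 0.22), and that of the third probe was 0.24 (adjusted p 0.457). In HS vs. TR the 3 probes were between 0.08 and 0.18, and in TR vs. CL between 0.16 and 0.36, with none passing the FDR limit.

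HS3 and HS4, the HS arrays with the highest HSPH1 signals, were also the 2 highest in neuron markers. In the other groups, HSPH1 was below its mean, between -0.29 and -0.09, on TR2, TR4, CL2, CL3 and CL4. Neuron marker medians on these arrays were between 9.65 and 10.71. TR3 had a median of 10.31, with HSPH1 at 0.08. TR1, the highest array for HSPH1 (0.40 above its mean), had a neuron marker median of 9.93, against 11.25 on HS1. CL1 had a neuron marker median of 11.60, with HSPH1 at -0.165 from its mean. The 6 neuron markers had a median change of 2.21 in HS vs. CL, with 3 of them DE and higher in HS, and a median of 2.51 in HS vs. TR. In a fit without HS3 and HS4, chosen after seeing the data, the change of A_87_P156813 in HS vs. CL was 0.32 (adjusted p 0.567) and that of A_87_P058311 was 0.16 (adjusted p 0.772). The call of A_87_P156813 was also lost when any of HS3, HS4, CL1, CL2 or CL3 was left out singly, with changes between 0.44 and 0.51. DE probes of the whole array in HS vs. CL numbered 493, 751, 1446, 672 and 892 in these fits, in that order. With all arrays they numbered 1250, and in the fit without both HS3 and HS4 138. Since HS3 and HS4 were also the highest HS arrays for both probes, leaving them out lowers the changes by selection. The fit therefore cannot bear on neuron content, whose part in this result was not tested. In bulk tissue fewer cells of a type and less RNA per cell cannot be told apart.

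HSPA4L, also of the HSP110 group, had a single probe. It was at 13.30, 13.19, 13.46 and 13.48 in HS, at 13.62, 13.26, 13.38 and 13.27 in TR, and at 13.36, 13.27, 13.27 and 13.43 in CL. The groups overlapped throughout, and TR1 was the highest array. The changes were 0.03 (HS vs. CL), -0.02 (HS vs. TR) and 0.05 (TR vs. CL), with an SE of 0.10 each and all 3 intervals within 1.5-fold. The first was -0.02 under scaling to the 75th percentile.

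**Figure D2:**
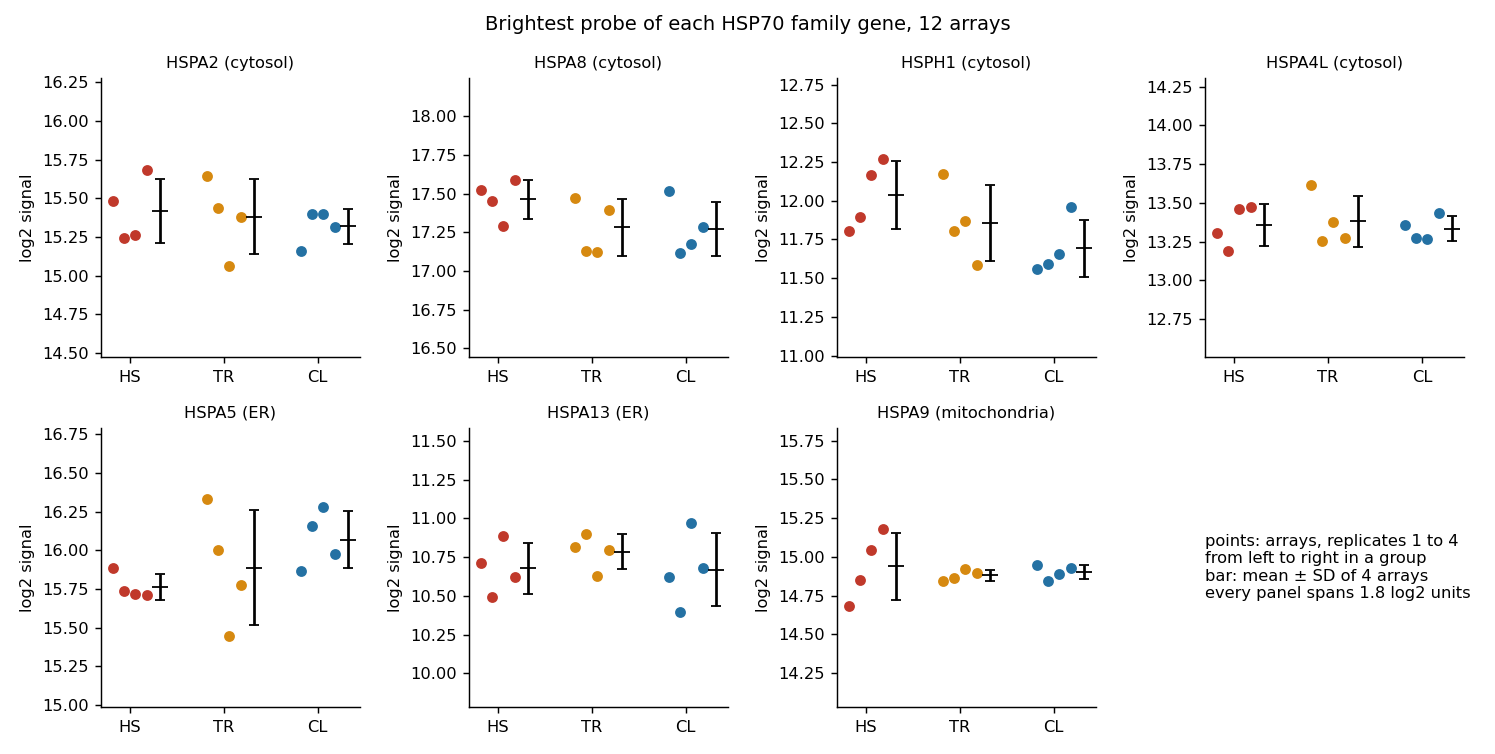
log2 signal of the brightest probe of each HSP70 family gene on the 12 arrays, with HS, TR and CL along the x axis, points for arrays and bars for mean ± SD of 4 arrays; every panel spans the same range of log2 units. The groups overlap in every panel, the HSPA5 signal of HS1 lies just above that of CL1, and HSPA9 spreads over HS (SD 0.22) more than over TR (SD 0.034) or CL (SD 0.045).

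HSPA5 (GRP78, also known as BiP) is the HSP70 of the ER lumen, where it folds secretory proteins and holds the sensors of the unfolded protein response inactive. Its brightest probe, A_87_P053121, was at 15.88, 15.74, 15.72 and 15.71 in HS, at 16.33, 16.00, 15.45 and 15.77 in TR, and at 15.86, 16.16, 16.28 and 15.97 in CL. The HS arrays were below the CL arrays apart from HS1, which was just above CL1, and the TR arrays spanned the range of both groups. The change in HS vs. CL was -0.31 (SE 0.16, adjusted p 0.315), with a 95% interval of -0.67 to 0.06.

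The second probe, A_87_P009374, was at 11.99, 12.01, 11.71 and 11.61 in HS, at 12.45, 12.15, 11.51 and 11.79 in TR, and at 12.21, 12.33, 12.57 and 12.03 in CL. All 4 HS arrays were below all 4 CL arrays, as for 7.34% of all probes, though HS2 and CL4 differed by little. Its change was -0.45 (SE 0.20, p 0.0396, adjusted p 0.217), or 0.73-fold with a 95% interval of 0.542 to 0.982, and the third probe gave -0.31 (adjusted p 0.429). The 3 HSPA5 probes were thus below 0 in HS vs. CL, also under scaling to the 75th percentile and normexp correction, and none passed the FDR limit.

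HSPA5 in recovered birds lay between the other groups on average, with a wide spread. In HS vs. TR the 3 probes were between -0.14 and -0.07, and in TR vs. CL between -0.31 and -0.18. TR3 was the lowest of the 12 arrays for all 3 probes and CL3 the highest for 2. For the brightest probe, the SD was 0.08 over HS, 0.37 over TR and 0.19 over CL. Without TR1 the change in HS vs. TR was 0.02 and without TR3 it was -0.27, so its direction rested on single birds. Without HS3 and HS4 the change of A_87_P009374 in HS vs. CL was -0.28 (adjusted p 0.71). These were its lowest HS arrays, so leaving them out shrinks the change by selection.

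HSPA13 (STCH) is a shortened HSP70 relative linked to ER membranes. The brightest of its probes, A_87_P035803, was at 10.71, 10.49, 10.89 and 10.62 in HS, at 10.81, 10.90, 10.63 and 10.80 in TR, and at 10.62, 10.40, 10.97 and 10.68 in CL. The groups overlapped, and the change was 0.01 in HS vs. CL (95% interval -0.27 to 0.29). It was -0.11 (HS vs. TR) and 0.12 (TR vs. CL) in the others. The dimmest probe, A_87_P193588, gave -0.38 in HS vs. CL (SE 0.18, adjusted p 0.26). The probe A_87_P257093 gave -0.84, with an SE of 1.05, since it was at 4.18 on HS4 and 6.98 on CL4 and between 7.97 and 9.84 on the other arrays. The intervals of the 3 probes in HS vs. CL overlapped.

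HSPA9 (mortalin) is the HSP70 of the mitochondrial matrix, which pulls proteins in through the import channel and folds them. Its probe A_87_P037059 was at 13.71, 13.72, 13.97 and 14.14 in HS, at 13.60, 13.55, 13.71 and 13.71 in TR, and at 13.52, 13.51, 13.55 and 13.49 in CL. All 4 HS arrays were above all 4 CL arrays, as for 4.49% of all probes, and the CL arrays lay within a narrow band. The change in HS vs. CL was 0.36 (SE 0.10, adjusted p 0.082), or 1.29-fold with a 95% interval of 1.11 to 1.50. Against TR it was 0.24 (adjusted p 0.26). The probe passed the limits on p and FDR in HS vs. CL and fell short of the fold limit.

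The 2 brighter HSPA9 probes did not share this. The brightest, A_87_P276953, was at 14.68, 14.85, 15.04 and 15.18 in HS, at 14.84, 14.87, 14.92 and 14.90 in TR, and at 14.95, 14.85, 14.89 and 14.93 in CL. HS3 and HS4 were above all CL arrays, and HS1 was below all of them. The change in HS vs. CL was 0.04 (adjusted p 0.873) and -0.06 under scaling to the 75th percentile, and the other probe gave 0.12 (adjusted p 0.537). HS4 was the highest array for all 3 probes. Without HS3 and HS4, the arrays with the most neuron marker signal, the change of A_87_P037059 was 0.19 (adjusted p 0.438) and that of A_87_P276953 was -0.14. HS3 and HS4 were also the highest HS arrays for both probes, so leaving them out lowers the changes by selection. The part of neuron content was not tested. The call of A_87_P037059 was also lost without HS3, HS4 or CL2 singly, with changes of 0.34, 0.28 and 0.36. Over the whole array, DE probes in HS vs. CL fell from 1250 to 493, 751 and 672 in these fits.

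**Figure D3:**
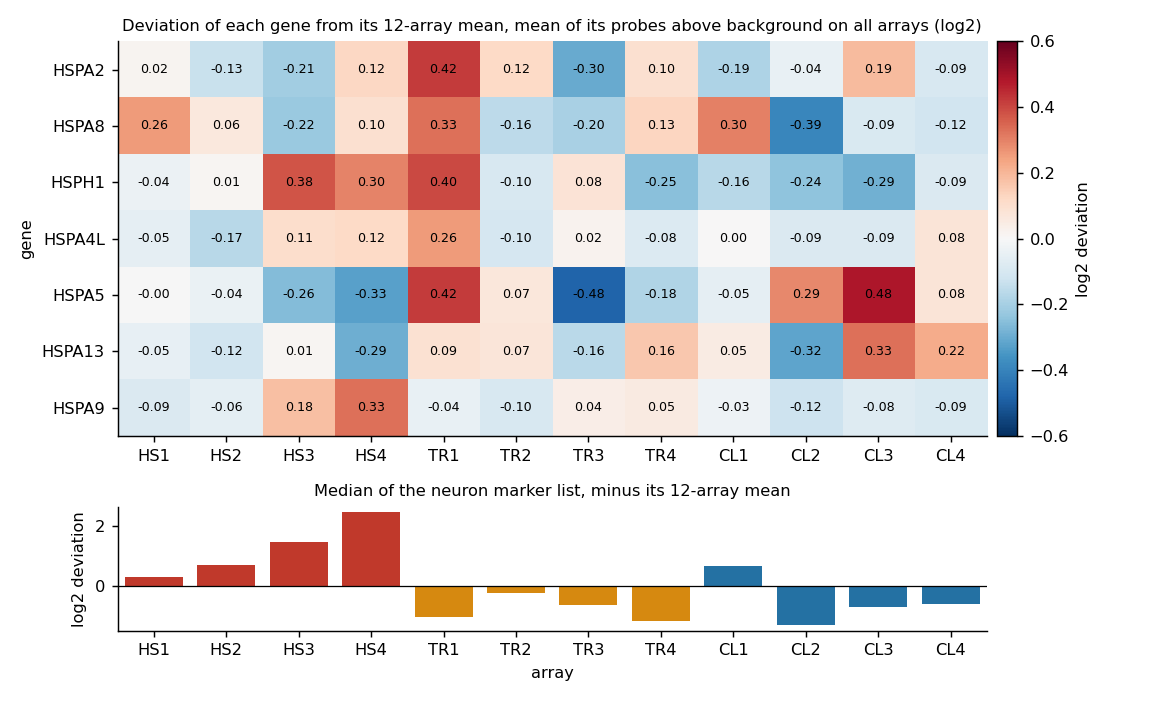
Upper panel, deviation of each gene (y axis) from its 12-array mean on each array (x axis), in log2 units and averaged over its probes above background on all arrays; lower panel, median log2 signal of the neuron markers on the same arrays as a deviation from its mean. TR1 is the highest array in all 4 cytosolic genes, and TR3 is the lowest for HSPA2 and HSPA5. HS3 and HS4 are high for HSPH1 and HSPA9 where the neuron bars are tallest, while TR1 is highest for HSPH1 with a neuron bar below its mean.

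Birds differed in ways that several members shared. TR1 was 0.42 above the 12-array mean for HSPA2, 0.33 for HSPA8, 0.40 for HSPH1 and 0.26 for HSPA4L, the highest array for each of the 4 cytosolic genes, and it was 0.42 above for HSPA5. For HSPA9 the same array was at -0.04. TR3 was the lowest array for HSPA2, at -0.30, and for HSPA5, at -0.48. In TR vs. CL, where 48.6% of all probes had changes above 0, all 13 cytosolic probes did (11 of 13 under scaling to the 75th percentile). Their median was 0.16, and none was called. Without TR1 the brightest probes of HSPA2, HSPA8 and HSPA4L had changes of -0.02, -0.06 and -0.03 in TR vs. CL, and that of HSPH1 had 0.06. TR1 was the highest TR array for each of these probes, so leaving it out lowers the changes by selection.

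By compartment, the medians in HS vs. CL were 0.10 over the 13 cytosolic probes, -0.34 over the 6 ER probes and 0.12 over the 3 mitochondrial probes. Over all probes tested, 43.3% had changes above 0. Of the cytosolic probes 10 were above 0 and 3 below, of the ER probes 1 was above and 5 below, and all 3 mitochondrial probes were above. Under scaling to the 75th percentile these splits were 7 above and 6 below in the cytosol, 1 above and 5 below in the ER, and 2 above and 1 below in the mitochondria. Probes of a gene share their RNA and are not replicates, and these counts carry no test.

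Whether the compartments moved apart was examined in the birds, with the difference between the brightest probes of 2 genes on the same array. Only changes of this difference between groups were compared, since levels of different probes have no shared scale. The brightest probes of HSPA5, HSPA8 and HSPA9 were all read from the low-gain scan on all 12 arrays, as were those of HSPA2 and a second HSPA8 probe, and no member probe was saturated. Centred over the 12 arrays, HSPA5 minus HSPA8 was -0.21, -0.28, -0.14 and -0.45 in HS, 0.29, 0.30, -0.24 and -0.19 in TR, and -0.22, 0.47, 0.54 and 0.12 in CL. All 4 HS birds were below 0, as were TR3, TR4 and, alone among the CL birds, CL1. The difference in HS vs. CL was -0.50 (SE 0.19, exact two-sided permutation p 0.0857, adjusted p 0.513 over 9 tests). The smallest permutation p of the design is 0.0286. Reached by a single pair, with little difference in the others, it stays over the FDR limit of 0.15 after adjustment over 9 tests. The adjusted p could therefore not call a single pair that moved apart, and no conclusion is drawn from it.

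The other pairs differed by less. HSPA5 minus HSPA9 changed by -0.34 in HS vs. CL (SE 0.18, exact permutation p 0.114) and HSPA9 minus HSPA8 by -0.15 (SE 0.14, exact permutation p 0.314). In HS vs. TR the 3 pairs, in the same order, gave -0.31, -0.18 and -0.12, and the values of TR vs. CL were -0.19, -0.16 and -0.03. Adjusted over the 9 tests, p was between 0.513 and 0.914, which cannot decide whether a pair moved apart, for the reason given above. In each pair and comparison the groups overlapped.

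**Figure D4:**
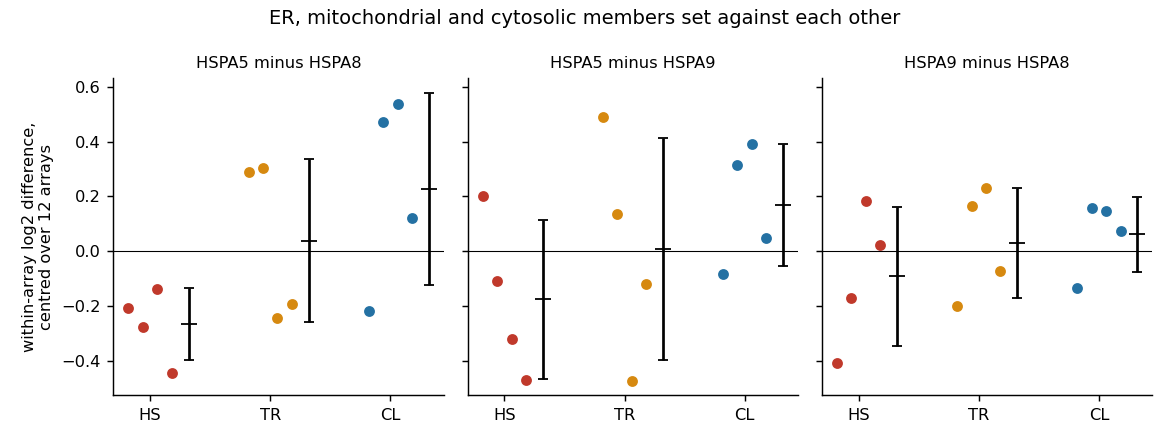
Within-array log2 difference between the brightest probes of 2 genes, centred over the 12 arrays (y axis), in HS, TR and CL (x axis), with points for arrays in replicate order and bars for mean ± SD of 4 arrays. In the panel of HSPA5 minus HSPA8 the HS points lie between -0.45 and -0.14, and CL spreads from -0.22 to 0.54.

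The partners of the HSP70 cycle were counted by the brightest probe of each gene. None was DE in any of the 3 comparisons, among 12 J-domain co-chaperones of the cytosol (of 22 listed), 6 nucleotide exchange factors and regulators (of 13), 14 ER partners and unfolded protein response genes (of 30), 6 mitochondrial partners (of 24) and 12 heat shock factors and their target chaperones (of 28). Some genes stand in 2 lists, and the counts below are over the brightest probes unless others are named. No named probe was found for the 5 other HSP70 superfamily genes listed. The backgrounds are the shares of DE probes given above. The study reported the HSP40 gene DNAJC13 as higher in HS than in CL and TR, by array and by PCR. Its probes tested here had changes of -0.14, 0.00 and 0.09 in HS vs. CL, none DE. In HS vs. TR they were -0.15, -0.07 and -0.22, in the same order, none DE. Whether they match the study's probe was not tested. The HSP90 gene HSPCB, which the study reported as lower in HS, is not among the genes tested here under that name. Of the HSP90 genes listed with the heat shock factors and their targets, HSP90AA1 was tested and HSP90AB1 was not.

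Without the fold limit, 3 J-domain genes passed in HS vs. CL (background 11.1%), all higher in HS. DNAJC6 (auxilin), which works with HSC70 to uncoat clathrin vesicles, had a change of 0.35 (SE 0.13, adjusted p 0.149), DNAJB14 had 0.34 (adjusted p 0.071) and DNAJA4 had 0.33 (adjusted p 0.0926). Other probes of the same genes did not all share this. Those of DNAJC6 were at -0.10 and -0.08, those of DNAJB14 between 0.06 and 0.17 with none passing, and those of DNAJA4 between 0.26 and 0.43 with 1 passing (adjusted p 0.0578). The brightest DNAJB14 probe was at 14.68, 14.44, 14.55 and 14.26 in HS, at 14.44, 14.47, 14.39 and 14.40 in TR, and at 14.19, 14.12, 14.13 and 14.11 in CL. HS was above CL throughout, as for 4.49% of all probes. The same probe in TR was above CL as well, by 0.29 (adjusted p 0.48). Over the 12 genes the median change in HS vs. CL was 0.19, with 8 above 0 and 4 below, where 43.3% of all probes were above 0. The split was 7 and 5 under scaling to the 75th percentile or normexp correction. DNAJC6 missed the FDR limit under both of these, with adjusted p of 0.153 and 0.246, and DNAJA4 missed it under normexp correction, at 0.171.

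STUB1 (CHIP), a ubiquitin ligase that docks on HSP70 and marks its clients for degradation, passed the same limits and was lower in HS. It was at 10.13, 10.15, 10.25 and 9.97 in HS, at 10.47, 10.36, 10.54 and 10.43 in TR, and at 10.51, 10.48, 10.40 and 10.41 in CL. The gene had 1 probe tested, and the 4 HS birds were below all 8 others. Of all probes, 7.34% had every HS array below every CL array, and 11.3% did not overlap in HS vs. TR. The share below both groups was not computed. The change of HS was -0.32 (SE 0.08) against CL (adjusted p 0.0601) and -0.33 against TR (adjusted p 0.0889), under the fold limit in both, and TR vs. CL gave 0.00. Both differences passed the limits on p and FDR under each of the 4 scalings.

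Of the 14 ER partners, 11 had changes below 0 in HS vs. CL and 3 above, with a median of -0.13. Over all probes tested 43.3% were above 0, with a median of -0.04. None of the brightest probes of these partners passed the FDR limit. A second probe of PDIA3, a disulfide isomerase, did, at -0.28 (adjusted p 0.0919), as did 11.1% of all probes. Its HS arrays were all below its CL arrays, as for 7.34% of all probes. Under scaling to the 75th percentile 12 were below 0 and 2 above, and under normexp correction 10 and 4. DNAJC3, an ER J-domain protein that works with HSPA5, had the largest change of the list by brightest probe, at -0.43 (SE 0.22, adjusted p 0.281), while its other probes were at 0.13, -0.23 and -0.21. The brightest was at 13.51, 13.69, 13.85 and 13.86 in HS, at 14.24, 13.53, 13.71 and 13.52 in TR, and at 13.87, 13.86, 14.77 and 14.14 in CL. CL3, the highest array for 2 of the 3 HSPA5 probes, was the highest for this DNAJC3 probe. HSP90B1 (GRP94), the HSP90 of the ER, gave -0.31 (adjusted p 0.278) and, on its other probes, -0.43, -0.29 and -0.04, and is named here because of its values.

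Among the heat shock factors and their targets 9 of 12 genes had changes above 0 in HS vs. CL (43.3% of all probes). Under scaling to the 75th percentile 5 of the 12 did. The largest change was that of HSPB9, a small heat shock protein, at 0.50 in HS vs. CL (SE 0.19, adjusted p 0.16), with 0.50 and 0.17 on its other probes. The brightest was at 10.47, 11.01, 11.07 and 11.44 in HS, at 10.45, 10.80, 10.21 and 10.55 in TR, and at 10.48, 10.44, 10.66 and 10.39 in CL, so that 3 HS birds were above all CL birds and HS1 was not. Without HS1, 1 gene of this list was DE in each comparison of HS. In the same fit 1904 of all 35005 probes were DE in HS vs. CL and 1218 of 35005 in HS vs. TR. The mitochondrial partners had a median change of 0.08, with 5 of 6 above 0 (3 of 6 under scaling to the 75th percentile), and their largest was 0.18, for the cysteine desulfurase NFS1 (SE 0.09, adjusted p 0.278), whose other probe gave 0.24. Of the less bright probes of the other partners, those that passed the limits on p and FDR in HS vs. CL were 1 of the mitochondrial chaperone TRAP1, at -0.28 (adjusted p 0.072), and 1 of the HSP70 co-chaperone SGTA, at -0.35 (adjusted p 0.0853), whose brightest probes were near 0. Across all probes tested 11.1% passed the same limits, so passes among many partner probes are no result about these genes.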

How the data were processed

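Hypothalamus RNA of 12 birds was hybridized to 1-colour chicken arrays. The authors deposited, for each spot, the processed intensity of Feature Extraction 10.7.3.1 (background-subtracted, not scaled between arrays), median signal and background intensities and quality marks, and a table of log2 values that they had quantile-normalized; 22 of 22 member probes were matched in it by value. Intensities were taken to log2, and spots with outlier marks were left out, which left 420 probe values missing. Arrays were quantile-normalized over 43803 spots besides the controls, and spots were then averaged to 43603 probes. The test took the 34929 probes that 1 group or more had above background on each of its 4 arrays, in limma 3.58.1 (R 4.3.3), fitted to 12 arrays, with Benjamini-Hochberg adjustment over all probes; the step was tested on simulated data. The limits follow the study's methods. Probes were named by accession through the GRCg7b gene table (10185 probes). Probes were taken by name, and hybridization of related transcripts to them was not tested. A gene is given by its brightest probe, with the others of each named gene beside it. Differences between 2 genes were compared by exact permutation over the 70 assignments of 8 arrays. From each partner list, the genes DE in a comparison, or else the gene with the largest change in HS vs. CL, are named; other partners were named after their values were seen, and the rule naming genes with a similar profile applied to no member. Members, lists and tests were chosen with earlier results of these data known. The alternatives comprised normexp correction (offset 50), scaling to the 75th percentile, other filters and limits, the methods' t-test, array weights, a replicate block, the deposited table, all probes averaged, and arrays left out. Arrays give no counting depth, and their number limits the precision. Plots were made in Python 3.11.15 (matplotlib 3.10.9).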

Additional observations from a re-analysis of the deposited data

Results flagged for a closer look

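In 2 of 66 groups of 4 arrays, 1 array stood far from the other 3 of its group by Dixon's criterion, which chance exceeds in about 1 of 20 groups. Both cases were the same HSPA13 probe, A_87_P257093. On HS4 it was at 4.18, against 8.90 to 9.84 on the other HS arrays. On CL4 it was at 6.98, against 9.19 to 9.53 on the other CL arrays. On TR4, which was not flagged, it was at 7.97, the lowest of its group. The other 2 HSPA13 probes were at 10.62 and 7.58 on HS4 and at 10.68 and 8.55 on CL4, near or within the range of their groups, and the cause was not tested.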

How the results depend on the processing

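The count of DE HSP70 family probes in HS vs. CL was 0 under 25 of 26 alternatives, and 2 with no fold limit, an alternative added after seeing the data. It was 0 under 26 of 26 alternatives in each of the other comparisons. Not all of these could have given another count. A stricter FDR limit cannot raise a count of 0. No member with an unadjusted p under 0.05 changed by over 1.5-fold, so lifting the FDR limit could add none. The deposited table holds nearly the same values as the main fit. The number of probes passing p and FDR without the fold limit in HS vs. CL was 0 by the methods' t-test, 1 with only the 2 groups compared, 0 without HS3 and HS4, and 0 to 2 with single arrays left out. Over the whole array, DE probes in HS vs. CL numbered 414 by the t-test, 860 with the 2 groups and 138 without HS3 and HS4, against 1250. By normexp the HSPH1 probe A_87_P058311 passed (0.47, adjusted p 0.145). The main fit did not pair birds by replicate number. Correlations of same-numbered arrays were -0.15 to 0.37, with 3 of 12 over 0.1. For replicate 4 they were 0.13 (HS vs. CL), 0.17 (HS vs. TR) and 0.09 (TR vs. CL). Those of replicate 1 were -0.15, 0.03 and -0.13, in the same order. With the replicate block 0 member probes were DE, and the counts over all probes were 1250 (HS vs. CL), 523 (HS vs. TR) and 20 (TR vs. CL), against 1250, 644 and 33 without it. By normexp they were 668, 306 and 19, and under scaling to the 75th percentile 1208, 713 and 57.

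Some changes turned their sign, with none of them DE and the cause not tested. Scaling to the 75th percentile gave, in HS vs. CL, -0.0060 for HSPA2, -0.0069 for HSPA8, -0.017 for HSPA4L and -0.057 for HSPA9. It gave -0.026 for HSPA2 and -0.0093 for HSPA9 in HS vs. TR, and -0.055 for HSPA8 and 0.0081 for HSPA9 minus HSPA8 in TR vs. CL. With array weights HSPA4L was 8.76e-05 in HS vs. TR and HSPA8 -0.00081 in TR vs. CL. With all probes of a gene averaged, HSPA2 was -0.015, HSPA13 -0.40 and HSPA9 minus HSPA8 0.050 in HS vs. CL. The average of HSPA13 takes in its probe A_87_P257093, which gave -0.84 alone and was at 4.18 on HS4. The same averaging gave -0.13 for HSPA2 and 0.082 for HSPA9 minus HSPA8 in HS vs. TR, and -0.051 for HSPA13 and 0.069 for HSPA9 in TR vs. CL. Without HS3 and HS4, HSPA4L was -0.087, HSPA13 -0.068 and HSPA9 -0.14 in HS vs. CL, and HSPA2 -0.020, HSPH1 -0.0062 and HSPA9 -0.12 in HS vs. TR.

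With single arrays left out, the ranges that crossed 0 in HS vs. CL were -0.014 to 0.081 for HSPA4L, -0.081 to 0.11 for HSPA13 and -0.044 to 0.12 for HSPA9. Those in HS vs. TR were -0.070 to 0.12 for HSPA2, -0.063 to 0.056 for HSPA4L, -0.27 to 0.022 for HSPA5 and -0.022 to 0.14 for HSPA9. Those in TR vs. CL were -0.025 to 0.17 for HSPA2, -0.057 to 0.089 for HSPA8, -0.031 to 0.088 for HSPA4L, -0.32 to 0.00054 for HSPA5 minus HSPA9 and -0.097 to 0.048 for HSPA9 minus HSPA8.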
